A study of Mus musculus with 4 samples.

Results

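The BCL2 family sets whether a cell opens its mitochondria and dies. Its transcripts were followed here in spermatogonia whose retinoic acid signalling was impaired. The 10 members were taken by gene symbol from the deposited abundance table, which holds 43998 entries, and each of the 10 symbols had 1 entry of its own. They are the pro-survival genes Bcl2, Bcl2l1 and Mcl1, the effector genes Bax and Bak1, and the BH3-only genes Bid, Bad, Bcl2l11, Bbc3 and Pmaip1. The effector and BH3-only genes together make up the 7 pro-death members.

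RNA came from spermatogonia of C57BL/6 mice at postnatal day 4, enriched from testis with beads against CD90.2, the THY1 antigen. There were 2 libraries from mice with a germ cell mutation of retinoic acid (RA) signalling and 2 from control mice. The labels name neither the allele nor any Cre driver, and whether the 2 libraries of each genotype were taken from different mice is not said. Levels are RPKM, reads scaled to transcript length and to sequencing depth, given as 1 combined value per genotype from both libraries. The variation between libraries is thus unknown for every difference below, and neither SDs nor p-values could be computed.

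In mitochondrial apoptosis the pro-survival proteins BCL2, BCL-XL (from Bcl2l1) and MCL1 hold BAX and BAK in check. When freed, BAX and BAK form pores in the outer mitochondrial membrane, and cytochrome c escapes to activate caspases. BH3-only proteins start this step by binding the groove of the pro-survival proteins with a short helix, the BH3 segment, and some of them also activate BAX and BAK directly. In the mouse testis, BAX is needed for the early wave of germ cell death, and spermatogonia depend on BCL-XL to survive.

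The BH3 core is what the killers and the protectors of the family have in common, so its codons are shown for the members searched. The core was found by translating coding sequences of GENCODE M21 and looking for leucine, any 2 residues, then isoleucine, methionine, alanine or valine, then glycine, alanine or serine, then aspartate. All 9 coding sequences searched held exactly 1 match, and Pmaip1 was not searched. Each line gives the GRCm38 position of the 18-base core, then the coding strand with the 6 core codons in capitals and 5 codons on either side. Every core lay within a single coding exon.
Bcl2, chr1:106712584-106712601, minus strand, exon 1 of 2: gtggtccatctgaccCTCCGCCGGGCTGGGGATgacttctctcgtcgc
Bcl2l1, chr2:152829706-152829723, minus strand, exon 2 of 3: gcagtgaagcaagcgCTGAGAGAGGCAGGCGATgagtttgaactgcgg
Mcl1, chr3:95659436-95659453, plus strand, exon 1 of 3: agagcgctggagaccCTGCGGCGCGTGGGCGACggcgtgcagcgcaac
Bax, chr7:45466006-45466023, minus strand, exon 3 of 6: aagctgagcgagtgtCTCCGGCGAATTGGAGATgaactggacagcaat
Bak1, chr17:27022540-27022557, minus strand, exon 4 of 6: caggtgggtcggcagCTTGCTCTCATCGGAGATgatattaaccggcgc
Bid, chr6:120897298-120897315, minus strand, exon 4 of 6: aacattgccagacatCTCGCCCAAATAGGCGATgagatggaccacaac
Bad, chr19:6950792-6950809, plus strand, exon 3 of 4: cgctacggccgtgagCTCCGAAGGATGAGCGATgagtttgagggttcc
Bcl2l11, chr2:128147150-128147167, plus strand, exon 3 of 4: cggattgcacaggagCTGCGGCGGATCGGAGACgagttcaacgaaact
Bbc3, chr7:16313773-16313790, plus strand, exon 3 of 4: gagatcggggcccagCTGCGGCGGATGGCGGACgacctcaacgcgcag

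The fifth core codon reads glycine in 7 of the 9 genes, serine in Bad (AGC) and alanine in Bbc3 (GCG). The fourth is alanine in Bcl2 and Bcl2l1 and valine in Mcl1, whereas all the pro-death genes searched have isoleucine or methionine there. Bax and Bcl2l11 encode the same 6 core residues with 14 of 18 bases alike, although Bax is an effector gene and Bcl2l11 a BH3-only gene. The core starts 73.1% to 76.5% of the way along the proteins of Bad, Bcl2l11 and Bbc3 and 46.2% along that of Bid, also a BH3-only gene. In the effectors Bax and Bak1 it starts at 32.8% and 36.4%, and in the pro-survival genes Bcl2, Bcl2l1 and Mcl1 at 39.8%, 38.6% and 58.6%.

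The low values moved in steps of whole reads, which put the depth near 57.3 M reads for the mutant value and 56.3 M reads for the control value, if no further scaling entered. Germ cell genes were plentiful: of 20 listed, 19 had a higher mutant value, with a summed RPKM of 1682 in mutant and 1217 in control. Of 6 genes of differentiating spermatogonia, 3 had a higher mutant value (Sohlh1, Sohlh2 and Dmrtb1) and 3 were at least 2-fold lower (Kit, Ccnd2 and Stra8). Stra8, a gene induced by retinoic acid, was at 8.60 RPKM in mutant and 45.2 RPKM in control. The 10 genes of undifferentiated spermatogonia were split, 5 above 0 and 5 below. Of these, Zbtb16 was at least 2-fold higher (53.7 RPKM in mutant, 24.4 RPKM in control). Gfra1 was at least 2-fold lower (14.2 RPKM in mutant, 35.9 RPKM in control). Markers of several other testicular cells were present and lower in the mutant values. Macrophage markers were lower for 12 of 12 genes (summed RPKM 1704 in mutant, 4675 in control), mast cell markers for 6 of the 6 that passed the filter on low values (16.3 in mutant, 163 in control), Leydig cell markers for 4 of 4 (155 in mutant, 458 in control) and Sertoli cell markers for 9 of 9 (171 in mutant, 359 in control). Erythroid markers were lower for 5 of 5 (76.6 in mutant, 416 in control). Among these 5 lists only Fcer1a of the mast cell list was at 0, in mutant. Not every list of other cells was lower throughout. Of 5 lymphocyte genes that passed the filter, 3 were above 0 and 2 below, and of 6 endothelial genes 2 were above and 4 below. All genes that passed were below 0 for neutrophils (3), peritubular myoid cells (4) and interstitial fibroblasts (5). All 10 BCL2 family members can be expressed by such cells as well as by germ cells, and the part of these cells in the differences below was not tested. In a bulk sample, fewer cells of a type and less RNA per cell cannot be told apart.

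Pmaip1 was higher and Bak1 lower in the mutant by at least 2-fold, and the other 8 members lay between these limits. Differences are given as log2((mutant RPKM + 1) / (control RPKM + 1)), which understates the change of low values, and the 2-fold rule refers to this scale. The comparison was limited to genes that reached 1 RPKM in at least 1 genotype, and all 10 members did. Of 16473 genes compared, 4.4% were at least 2-fold higher in the mutant and 4.35% at least 2-fold lower, and 1 member of 10 in each direction is too small a count to read against these shares. Among 12198 protein-coding genes the shares were 1.31% higher and 4.07% lower. A total of 8 members lay below 0, as did 8175 of all 16473 genes and 6799 of the 12198 protein-coding genes. The median log2 difference of all 10 was -0.34, beside 0.0048 for all genes and -0.06 for protein-coding genes.

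**Figure D1:**
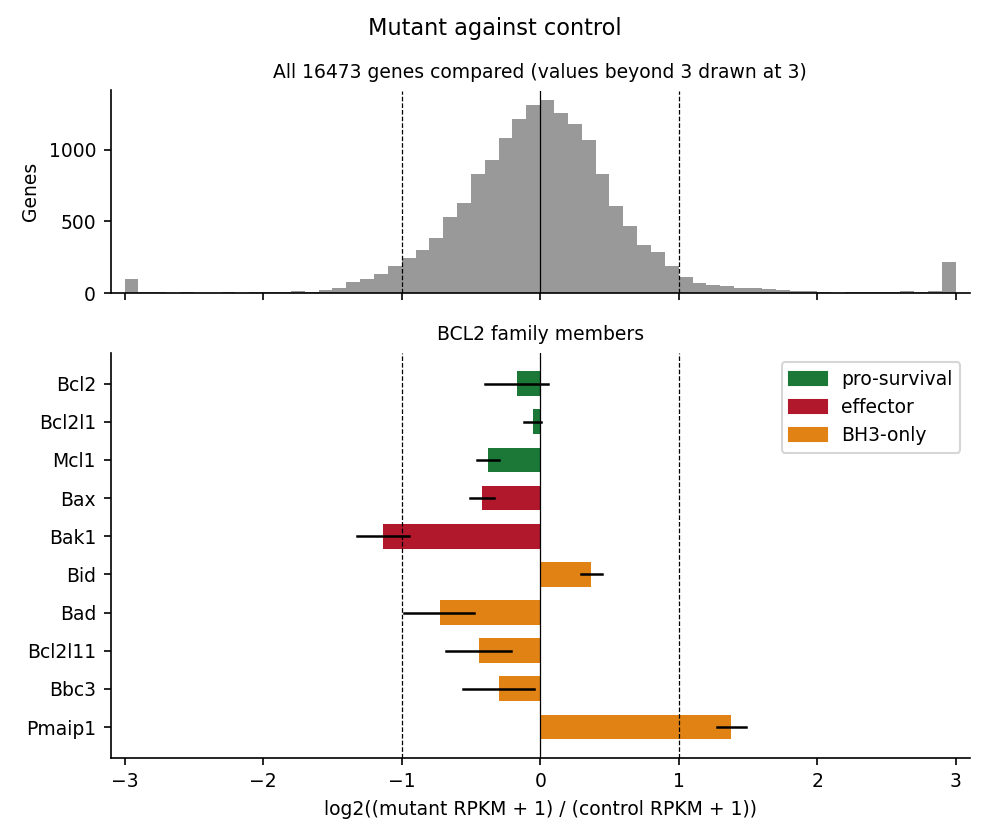
The upper panel counts all 16473 genes compared by log2((mutant RPKM + 1) / (control RPKM + 1)), and the lower panel gives the same quantity for the 10 members, coloured by role. Thin black lines are 95% counting intervals of the plain RPKM ratio, moved to the plotted value, so they are not exact for low values. For Bcl2 the drawn line crosses 0, though the interval of its plain ratio (0.717 to 0.985) lies below 1. Dashed lines mark 2-fold, and only Pmaip1 (1.38) and Bak1 (-1.13) lie past them.

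The intervals behind single members cover counting error only. They were taken from read numbers implied by the depth and by the shortest coding transcript of each gene, which makes them wide rather than narrow, and they say nothing of the variation between mice. The lowest implied number was 210 reads, for Bad in mutant.

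Among the pro-survival genes, Mcl1 had the largest difference. It stood at 60.3 RPKM in mutant, against 78.5 RPKM in control, a ratio of 0.768 (95% counting interval 0.726 to 0.812) and a log2 difference of -0.38. MCL1 is a short-lived protein that binds BAK, BIM and NOXA, and its transcript was the most abundant of the 10 in mutant and second to Bax in control. Bcl2l1 was at 45.2 RPKM in mutant and 46.9 RPKM in control. Its ratio of 0.963 had a counting interval of 0.923 to 1.005, and its log2 difference of -0.05 became 0.05 with the trend in transcript length and GC content removed, so no direction can be given. Bcl2, the founding member of the family, was scarce at 1.958 RPKM in mutant and 2.32 RPKM in control, below every other member in both genotypes. Its ratio was 0.842 (0.717 to 0.985) and its log2 difference -0.17. Only 18.02% of genes compared had a lower value in mutant and 23.8% in control. Mcl1 and Bcl2l1 thus made up nearly all of the pro-survival RPKM. The Mcl1 to Bcl2l1 ratio was 1.33 in mutant and 1.67 in control.

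**Figure D2:**
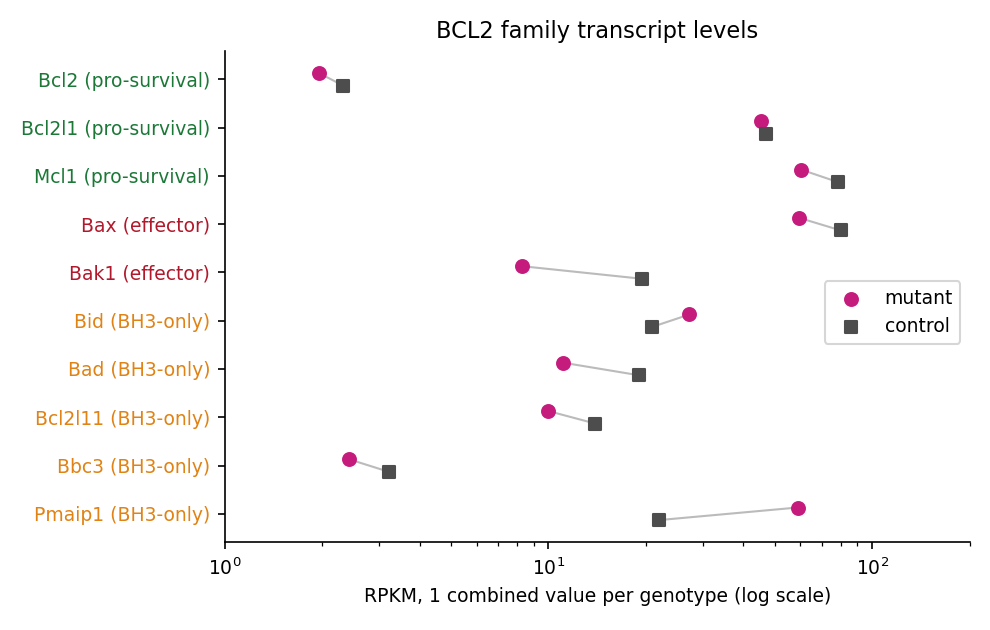
RPKM of each member on a log axis, with the mutant value as a circle above the control value as a square, 1 combined value per genotype. Bak1 lies far to the left of its control value (8.29 RPKM in mutant, 19.4 RPKM in control) and Pmaip1 far to the right (58.8 RPKM in mutant, 22.0 RPKM in control).

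Both effector genes had lower mutant values. Bak1, whose protein BAK sits in the mitochondrial membrane, was at 8.29 RPKM in mutant and 19.4 RPKM in control. The control value was 2.34-fold that of the mutant, and the ratio of mutant to control was 0.427 (0.375 to 0.488). Of the protein-coding genes, 293 of 12198 had a log2 difference as low as the -1.13 of Bak1 or lower, that gene included. Bax, whose protein moves from the cytosol to mitochondria, was at 59.6 RPKM in mutant and 80.0 RPKM in control, a ratio of 0.745 (0.702 to 0.789). Its log2 difference of -0.42 shrank to -0.19 with the length and GC trend removed. Bax was the more abundant effector throughout, by 7.19-fold in mutant and 4.13-fold in control. A lower effector level was also seen for Bok, the third gene of this kind, which stood at 10.04 RPKM in mutant and 18.6 RPKM in control (log2 difference -0.83).

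The BH3-only genes lay on both sides of 0. Pmaip1, which encodes NOXA, a partner mainly of MCL1, was at 58.8 RPKM in mutant and 22.0 RPKM in control, a ratio of 2.67 (2.49 to 2.88). Its log2 difference of 1.38 was matched or passed by 48 of 12198 protein-coding genes, itself included. Bid, which caspase 8 cleaves to link death receptors with mitochondria, was at 27.3 RPKM in mutant and 20.9 RPKM in control, a ratio of 1.31 (1.24 to 1.38). These were the only 2 members of the 10 with higher mutant values.

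The other BH3-only genes had lower values in the mutant. Bad, whose protein binds BCL2 and BCL-XL and is held back by phosphorylation, was at 11.1 RPKM in mutant and 19.0 RPKM in control, a ratio of 0.584 (0.489 to 0.694). Bcl2l11, the gene of BIM, a strong activator of BAX and BAK, was at 9.98 RPKM in mutant and 13.9 RPKM in control (log2 difference -0.44). Bbc3, the gene of the p53-induced protein PUMA, was at 2.42 RPKM in mutant and 3.22 RPKM in control (log2 difference -0.30). Bbc3 and Pmaip1 are both textbook targets of p53, and they lay on opposite sides of 0 in these values. Whether p53 acted on them was not tested. Trp53 itself was at 27.2 RPKM in mutant and 33.2 RPKM in control, and Mdm2, the p53 inhibitor that p53 induces, at 68.1 RPKM in mutant and 53.3 RPKM in control.

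The summed pro-death RPKM was nearly the same in both genotypes, but its make-up differed. The 7 pro-death members summed to 177 RPKM in mutant and 178 RPKM in control. Within that sum the effectors held 67.8 RPKM in mutant and 99.4 RPKM in control, while the BH3-only genes held 110 RPKM in mutant and 79.0 RPKM in control. Pmaip1 alone was 53.7% of the BH3-only sum in mutant and 27.8% in control. Its rank among the 10 members was 3 in mutant and 4 in control. The 3 pro-survival genes summed to 107 RPKM in mutant and 128 RPKM in control.

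**Figure D3:**
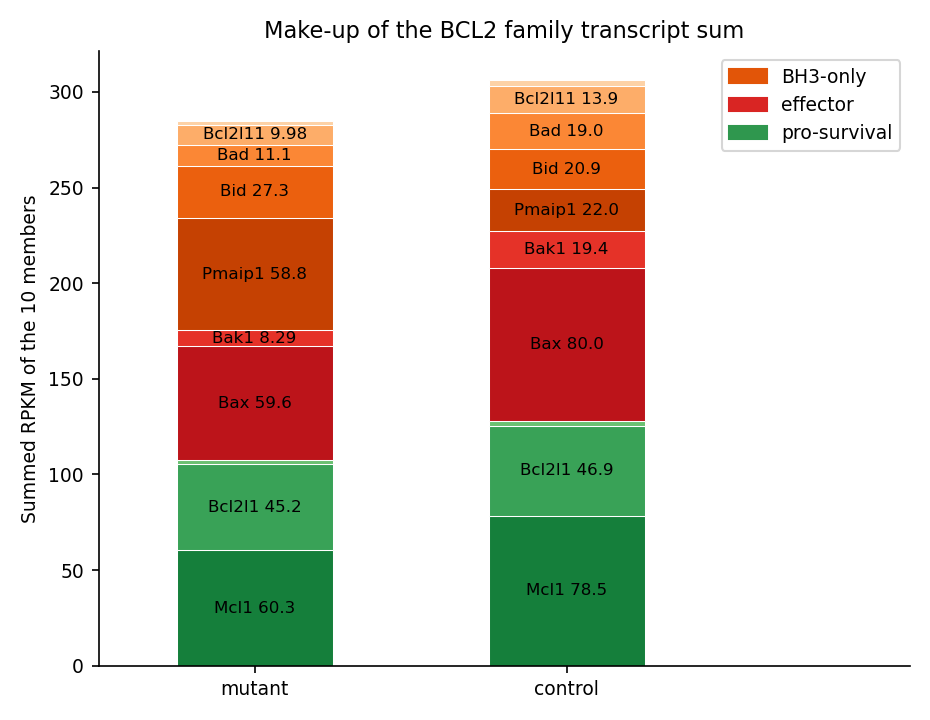
Stacked RPKM of the 10 members in mutant (left bar) and control (right bar), with pro-survival genes in green, effectors in red and BH3-only genes in orange. The sums are 285 RPKM in mutant and 306 RPKM in control, and the widened segment in the mutant bar is Pmaip1.

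Ratios within a genotype do not depend on how the columns were scaled. Summed pro-death over pro-survival RPKM was 1.65 in mutant and 1.40 in control, a 1.18-fold difference. Without Pmaip1 the direction turned, with a ratio of 1.10 in mutant and 1.22 in control. By the medians of the members in place of their sums, the log2 difference of this ratio was -0.75. The median pro-death gene was not the same in both, Bad in mutant (11.1 RPKM) and Bak1 in control (19.4 RPKM). The median pro-survival gene was Bcl2l1 in both, so -0.75 compares different single genes. The direction of the summed ratio thus depends on whether Pmaip1 is counted, and leaving out other members was not tried. The pro-survival sum below it also differed, at 107 RPKM in mutant and 128 RPKM in control. Most of that difference lay in Mcl1 (60.3 RPKM in mutant, 78.5 RPKM in control). The values give no single direction for the balance between both sides. BH3-only over effector RPKM was 1.62 in mutant and 0.795 in control, a 2.03-fold difference. BH3-only RPKM without Pmaip1, set against the pro-survival genes, was at 0.472 in mutant and 0.447 in control.

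Each pro-death gene was also set against each pro-survival gene. Of the 21 ratios, 6 were higher in mutant and 15 lower, and the 6 were those of Pmaip1 and Bid. Pmaip1 over Mcl1, the pair whose proteins bind each other, stood at 0.975 in mutant and 0.280 in control, a 3.48-fold difference. Bid over Mcl1 was at 0.452 in mutant and 0.266 in control. Bak1 over Bcl2l1 had the lowest ratio of mutant to control, at 0.183 in mutant and 0.413 in control. Bax over Mcl1 differed little, at 0.988 in mutant and 1.02 in control.

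Several members share their locus with another gene, and no source used here states whether counting was by strand. In the table, Bad has the same locus on chromosome 19 (6938069 to 6951898) as Gpr137, a receptor gene on the opposite strand whose annotated span overlaps that of Bad. Gpr137 was at 4.42 RPKM in mutant and 7.39 RPKM in control, a ratio of 0.597 next to 0.584 for Bad. Bid shares its locus on chromosome 6 (120836230 to 120916853) with Bcl2l13, also on the opposite strand, and the ratios were 1.31 for Bid and 1.25 for Bcl2l13. Both pairs thus had ratios close to each other, and without strand their reads cannot be told apart where the genes overlap. Bak1 shares its locus on chromosome 17 (26973167 to 27036378) with an entry for Ggnbp1 and Zbtb9 on the opposite strand. That entry was at 21.1 RPKM in mutant and 18.6 RPKM in control, so it did not have the low mutant value of Bak1. Bcl2 overlaps D630008O14Rik on the opposite strand, at 0.834 RPKM in mutant and 1.05 RPKM in control, and Bax overlaps Gm45808 in GENCODE.

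Scaling decides some of the smaller differences. When values were rescaled so that the germ cell list had a median of 0, the median of all genes moved to -0.48. Pmaip1 was then at 0.85, no longer past 2-fold, Bad was past it at -1.21, and Bid turned to -0.15. Relative to the shifted median of all genes these were 1.33, -0.74 and 0.33. Bak1 stayed past 2-fold lower under all 7 alternatives tried for single members, with a range of -1.61 to -1.01, and Pmaip1 past 2-fold higher in 6 of 7.

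**Figure D4:**
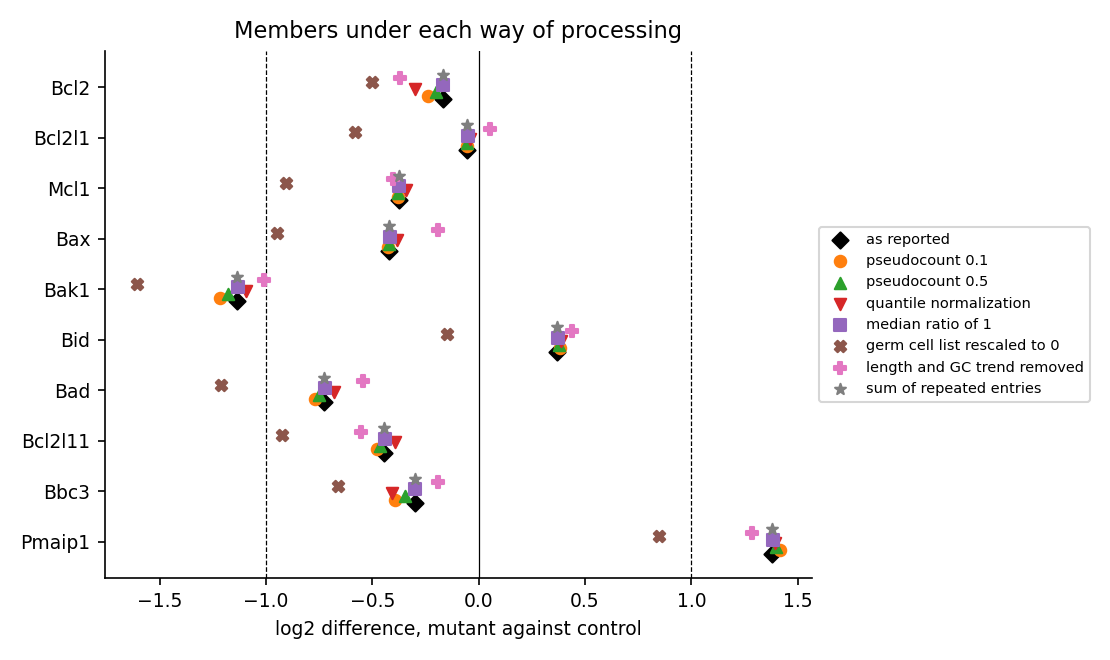
Log2 difference of each member as reported (black diamonds) and under 7 other ways of processing, with dashed lines at 2-fold. Rescaling to the germ cell list (brown crosses) shifts every member to the left, while the order of Bak1, lowest, and Pmaip1, highest, is the same under each.

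The remaining genes of the BCL2 family gave no 2-fold difference. Of the other BH3-only genes, Bmf was at 21.6 RPKM in mutant and 13.7 RPKM in control (log2 difference 0.62), and Bik at 14.04 RPKM in mutant and 20.4 RPKM in control (-0.51). Hrk was below the filter in both (0.340 RPKM in mutant, 0.302 RPKM in control). The other pro-survival genes with an entry of their own were all below it too. Bcl2a1a and Bcl2a1d, leukocyte genes with near-identical copies, were at 0.172 and 0.610 RPKM in mutant, against 0.811 and 0.668 RPKM in control, and Bcl2l10 at 0.206 RPKM in mutant and 0.0712 RPKM in control. Bcl2l2, the BCL-W gene that adult spermatogenesis needs, shares its entry with Pabpn1 and Gm20521, and Bcl2a1b with Mthfs and Gm29094, so neither could be read. Of the relatives with less settled roles, Bnip3l, a mitophagy receptor gene, was at 162 RPKM in mutant and 153 RPKM in control, Bnip3 at 33.7 RPKM in mutant and 26.8 RPKM in control, and Bcl2l12 at 24.4 RPKM in mutant and 25.3 RPKM in control. Bcl2l13 was at 9.57 RPKM in mutant and 7.66 RPKM in control. Bcl2l14 was below the filter at 0.191 RPKM in mutant and 0.459 RPKM in control, and Bcl2l15 has no entry of its own.

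Beyond the 10 members, 73 further apoptosis genes were listed in 10 groups, of which 68 had an entry of their own and 60 passed the filter. None of the 60 met the 2-fold rule in either direction. The shares were 4.4% higher and 4.35% lower among all genes, and 1.31% higher and 4.07% lower among protein-coding genes. Their log2 differences ran from -0.98 to 0.66 with a median of -0.24, beside -0.06 for protein-coding genes. Of the 60, 36 lay below 0 and 24 above. Below 0 were also 8175 of all 16473 genes and 6799 of the 12198 protein-coding genes.

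**Figure D5:**
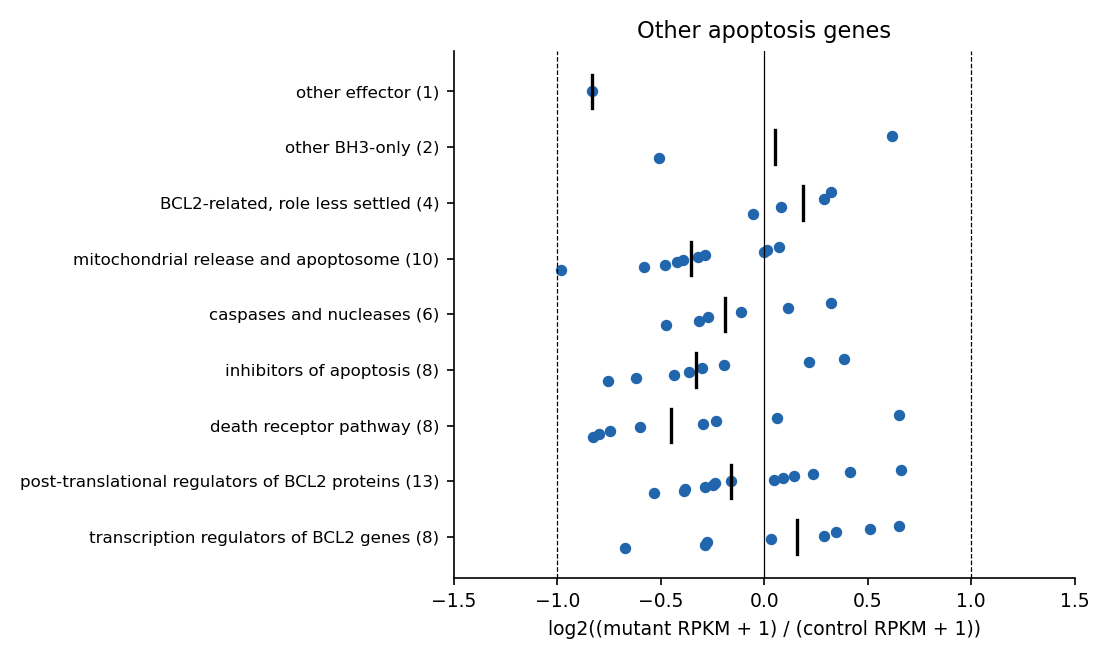
Each point is the log2 difference, mutant against control, of a gene that passed the filter, by group with the number of genes in parentheses, and black bars are group medians. Dashed lines mark 2-fold, and no point lies past them.

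Of 10 genes of mitochondrial release and the apoptosome, 7 were below 0, with a median of -0.36. Vdac1, an outer membrane channel gene, was nearest to 2-fold at 40.3 RPKM in mutant and 80.7 RPKM in control, and Vdac2, whose protein binds BAK, was at 103 RPKM in mutant and 144 RPKM in control. Vdac3 was at 87.6 RPKM in mutant and 110 RPKM in control. Diablo, which blocks inhibitors of apoptosis once released, was at 84.4 RPKM in mutant and 83.6 RPKM in control, a ratio of 1.01.

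Caspase and nuclease genes had a median of -0.19 over 6 genes. The most abundant was Casp2 at 50.3 RPKM in mutant and 40.1 RPKM in control. Inhibitors of apoptosis had a median of -0.33 over 8 genes. Birc6 was at 105 RPKM in mutant and 80.3 RPKM in control, Birc5, the survivin gene also needed for mitosis, at 34.4 RPKM in mutant and 53.4 RPKM in control, and Birc2 at 35.1 RPKM in mutant and 30.1 RPKM in control. The 3 leading inhibitor genes thus lay on both sides of 0.

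Death receptor genes had the lowest median of the groups with more than 2 genes, at -0.45 over 8 genes, with 6 below 0. Tnfrsf1a, a TNF receptor gene, was at 31.8 RPKM in mutant and 56.1 RPKM in control. Cflar, which restrains caspase 8, was at 26.0 RPKM in mutant and 40.0 RPKM in control, and Casp8 at 12.7 RPKM in mutant and 23.3 RPKM in control. These genes are also expressed by macrophages, whose 12 markers were lower in the same mutant values, and this was not tested as a source.

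Proteins that control the BCL2 family after translation had a median of -0.16 over 13 genes. Dynll1, a dynein light chain gene, was at 481 RPKM in mutant and 537 RPKM in control, and the 14-3-3 genes Ywhaz and Ywhae, whose proteins hold phosphorylated BAD, at 174 and 168 RPKM in mutant, against 212 and 199 RPKM in control. Of the enzymes that set MCL1 stability, Usp9x, a deubiquitinase gene, was at 171 RPKM in mutant and 155 RPKM in control. Huwe1, the gene of a ubiquitin ligase for MCL1, shares its entry with the microRNA gene Mir3113, and that entry was at 531 RPKM in mutant and 372 RPKM in control.

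Transcription regulators of the family were the group with the second highest median, 0.16 over 8 genes. Atf4, a stress factor that can induce Pmaip1, was at 71.4 RPKM in mutant and 69.8 RPKM in control, and Mdm4 at 60.9 RPKM in mutant and 49.7 RPKM in control. Foxo3 and Foxo1, whose proteins can switch on Bcl2l11 and Bbc3, were at 43.9 and 16.6 RPKM in mutant, against 30.5 and 10.2 RPKM in control. Their log2 differences of 0.51 and 0.65 lay above 0, where those of Bcl2l11 and Bbc3 lay below it. Whether FOXO proteins acted on these genes was not tested. E2f1 was at 9.97 RPKM in mutant and 16.5 RPKM in control.

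Promoter letters were searched for sites of these factors, in RefSeq promoters on GRCm38.p6 that reach from 250 bases before to 50 after a gene start. A total of 15 promoters of 9 member genes were searched, and Pmaip1 was not among these genes. The FOXO letters TGTTTAC, on either strand, occurred in 2 of the 15, against 3.65% of all 32851 promoters. Those 2 belong to Bcl2l11 and Bbc3, and they are shown with 10 bases on either side and the FOXO letters, or their reverse complement, in capitals.
Bcl2l11, chr2:128125801-128125827, plus strand, 227 bases before a start: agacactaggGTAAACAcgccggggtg
Bbc3, chr7:16310084-16310110, plus strand, 167 bases before a start: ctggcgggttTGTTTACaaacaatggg

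The retinoic acid receptor half-site AGGTCA occurred in 1 member promoter, of Bcl2l1, against 16.3% of all promoters, and the half-site AGTTCA in 1, of Bax, against 13.99%. The consensus decamer of the p53 half-site occurred in 1, also of Bax, against 8.36% of all. The E2F letters TTCCCGC occurred in 1, of Bbc3, against 4.60%, and TTGGCGC in 0 member promoters, against 2.45%. None of these matches is evidence of binding, and a window without the letters says nothing of the factor.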

How the data were processed

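The authors deposited RPKM values, with 1 column for both mutant libraries and 1 for both control libraries, per the file headers. The submitters' processing notes list the aligner TopHat2 2.0.11 and the genome build GRCm38. The sources used here do not state the counting program, its strand setting, the annotation, or how the libraries of a genotype were merged. The planned moderated linear model needed 1 column per library and was replaced by the 2-fold rule.

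Starts were shifted by 1 to count from 1. Entries that pool several symbols were left out, and the highest entry of a repeated symbol was used, leaving 42907 genes, of which 16473 reached 1 RPKM in at least 1 genotype and were compared. Depth came from values of 1 to 10 reads in genes with 1 annotated transcript: 90.6% of 1515 mutant and 84.8% of 1524 control values lay within 0.1 of a whole read, with 210 nt taken off each length. Ratios have 95% exact binomial intervals. Biotypes, lengths, GC content and coding sequences came from GENCODE M21, with Python 3.11.15, numpy 2.4.6, pandas 2.3.3 and scipy 1.17.1. The functions were tested on simulated data.

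The members and gene lists were chosen with earlier results of these data known. Named genes are all members, all other BCL2 family genes, any gene of the other apoptosis lists past 2-fold (there was none) and up to 3 genes with the highest mean RPKM in each of those lists. The rule does not cover the cell type marker lists, which are given by counts and, for some lists, sums. Others were named after their values were seen: Trp53, Foxo1, Foxo3, E2f1, Vdac1, Usp9x, Huwe1, the differentiating spermatogonia genes, Zbtb16, Gfra1, Fcer1a and the entries sharing a locus. Some genes of the caspase list that the rule names are not reported here.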

Additional observations from a re-analysis of the deposited data

How the results depend on the processing

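Every alternative planned for combined values was run. With the germ cell list rescaled to 0, the pro-death median was -0.93 and the pro-survival median -0.58. In that setting 0 members were at least 2-fold higher, beside 2.65% of all genes, and 2 at least 2-fold lower, beside 15.2%. These values follow from dividing all mutant values by 1.45. After removal of the trend in length and GC content, the pro-death median was -0.19, against -0.42 as reported; the cause was not tested. The log2 difference of summed pro-death over pro-survival RPKM, 0.24 as reported, was -0.15 without Pmaip1 and -0.75 with medians of RPKM. The counts of members past 2-fold, 1 in each direction, were the same with pseudocounts of 0.1 and 0.5, no filter, a minimum of 5 RPKM, quantile normalization, a median ratio of 1 and summed repeated entries. With a pseudocount of 0.1, 8.60% of all genes were 2-fold higher and 6.72% lower. These shares were 6.08% and 5.41% with a pseudocount of 0.5, and 1.69% and 1.67% with no filter. They were 4.70% and 5.77% with a minimum of 5 RPKM, and 4.11% and 4.32% with quantile normalization. A median ratio of 1 gave 4.44% and 4.32%, and summed repeated entries 4.39% and 4.34%.

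No paired analysis was possible because each genotype has 1 combined column, and leaving out single libraries was not run for that reason. Variation between mice is not measured, and the 2-fold rule carries no error rate.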
